A study of Mus musculus with 7 samples.

Results

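Sorted β-cells of Aldh1a3 KO_db/db mice were compared with those of db/db mice, across all genes with enough counts and across the functions of the β-cell. A gene was a member of the comparison when it passed a filter on low counts (filterByExpr of edgeR, minimum count 10) in the 4 libraries of these mice, and 13471 of the 35013 gene symbols in the table did. Acinar enzymes and the Reg family, 50 genes in all, were set aside and taken out of the counts beforehand. Poly-A RNA was sequenced from 2 KO_db/db, 2 db/db and 3 db/+ mice, with 1 library per mouse, and the db/+ libraries serve here as a lean reference.

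All animals carry the db mutation of the leptin receptor gene Lepr, on both alleles in the obese, diabetic db/db and KO_db/db mice and on 1 allele in the lean db/+ mice. In KO_db/db mice both Aldh1a3 alleles are floxed (fl/fl) and deleted by RIP-Cre(herr), a Cre driven by an insulin promoter, and a tdT reporter (fl/+) marks cells in which Cre was active. The sample labels call this genotype CKO and give the controls only as db/db and db/+. The study's methods describe db/db and db/+ controls for its metabolic tests that carry the same Cre and reporter with 1 floxed Aldh1a3 allele (fl/+), and whether the sequenced controls did is not given in the sources used here. Islets came from fasted mice. The study's methods give an adult age range and both sexes for its mice in general, and the age, the sex and the sorting gate of each sequenced mouse are not given in the sources used here.

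A β-cell releases insulin in step with its own glucose metabolism. Glucose enters through the transporter GLUT2 (Slc2a2), is phosphorylated, and its pyruvate is burned or carboxylated in mitochondria. The ATP made closes the KATP channel, the membrane depolarises, calcium enters, and insulin granules fuse with the membrane. Under chronic metabolic stress, as in db/db mice, β-cells lose genes of this chain and gain genes of endocrine progenitors, of which ALDH1A3, an enzyme that makes retinoic acid from retinaldehyde, is a marker.

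Aldh1a3 (ENSMUSG00000015134.15, GRCm38 chromosome 7 from 66390890 to 66427517) was at 5.09 and 8.15 CPM in KO_db/db, 102 and 201 CPM in db/db and 0.0751 to 0.603 CPM in db/+. CPM are counts per 1000000 counts of a library after scaling, and values are in the order mouse 1, mouse 2. Both KO_db/db libraries lay below both db/db libraries and above all db/+ libraries. Aldh1a3 fell in KO_db/db (log2 fold change -4.49 ± 0.43, adjusted p = 0.0335). Fold changes are KO_db/db over db/db on the log2 scale with their standard error, and adjusted p values are from the quasi-likelihood test of edgeR, adjusted by Benjamini-Hochberg over all genes tested, with 2 libraries a group. A second p value, where given, is from a fit of all 7 libraries, in which the 3 db/+ libraries add to the estimate of the spread. Without KO_db/db mouse 1 the adjusted p was 0.0736, and without the other libraries it was between 0.0126 and 0.026. In bulk RNA, fewer cells with a transcript and less of it per cell cannot be told apart. The smallest two-sided p that an exact permutation test of 2 against 2 mice allows is 0.333, so none was run on single values.

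The 2 KO_db/db libraries held acinar RNA in unequal amounts. The genes set aside took 18.1% of the 27496645 counts of KO_db/db mouse 1 (95% Wilson interval 18.084% to 18.113%) and 2.05% of the 35852785 counts of mouse 2 (2.0454% to 2.0547%), against 0.0518% and 0.0338% in the db/db libraries and at most 0.0319% in the db/+ libraries. The db/db libraries held 28350662 and 34006204 counts and the db/+ libraries 28126300 to 33059656, and the intervals cover counting error only. The level in mouse 1 over that in mouse 2 had a median of 11.3 (range 3.02 to 20) over the 39 genes set aside with at least 100 counts in both libraries, and 0.986 over all genes tested. This ratio exceeded 4 for 37 of the 39. It was lowest for Reg3a (3.02) and Reg3b (3.86), and was 7.22 for Reg2 and 11.7 for Reg1. Over the 23 genes called higher by edgeR with 4 libraries it had a median of 1.15 (0.872 to 1.59), and 0 of the 23 exceeded 4. Over the 513 genes tested in both fits that were called higher with all 7 libraries the median was 1.14, and 24 exceeded 4, up to 18.8. The plot of the 2 KO_db/db libraries shows the 23 genes near the diagonal and nearly all acinar genes above it. The test with 4 libraries favours genes on which the libraries of a group are close. The closeness of the 23 genes to the diagonal therefore cannot show whether they hold acinar RNA. No marker of another cell type was at 0 in all 4 libraries. The summed level of 10 α-cell markers was 1857 and 1420 CPM in KO_db/db and 2840 and 2422 CPM in db/db. Most of that sum in db/db was Ttr, at 631 and 567 CPM against 1985 and 1782 CPM, and without Ttr the other 9 summed to 1226 and 853 CPM against 855 and 639.9 CPM, with glucagon (Gcg) at 1051 and 639 CPM against 627 and 362 CPM. The summed level of 7 δ- and PP-cell markers was 1636 and 1275 against 933 and 544 CPM, with somatostatin (Sst) at 647 and 516 CPM against 169 and 85.6 CPM. In the db/+ libraries the sum of these markers spread over 3016, 1136 and 567 CPM. Sums over 13 ductal markers were 735 and 712 CPM in KO_db/db and 530 and 735 CPM in db/db. Of the 11 ductal markers tested, 6 lay above and 0 below db/db without overlap (27.2% and 30.1% over all genes tested). Among the 6 were Tff2 (126 and 12.0 CPM against 0.367 and 0.248 CPM) and Muc1 (23.8 and 1.76 CPM against 0.214 and 0.595 CPM). The median log2 fold change over the 11 was 1.06, or 0.43 without KO_db/db mouse 1. By edgeR 0 ductal markers passed with 4 libraries (4 at an unadjusted p under 0.05) and 2 were called higher with 7. Ductal markers called by DESeq2 on 4 libraries numbered 3 higher and 0 lower, and those called by edgeR on all libraries but KO_db/db mouse 1 numbered 0 and 0. Sums ran over 10 endothelial markers from 16.4 to 29.1 CPM, over 10 stellate and fibroblast markers from 2.50 to 5.75 CPM and over 15 macrophage and lymphocyte markers from 58.8 to 82.4 CPM. Of the 8 macrophage and lymphocyte markers tested, 1 lay above and 5 below db/db without overlap (27.2% and 30.1% over all genes tested). Their log2 fold changes ran from -2.22 to 4.1, with a median of -1.01, or -0.47 without KO_db/db mouse 1. The part of these cells in the results below was not tested, beyond the values given beside them.

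**Figure D1:**
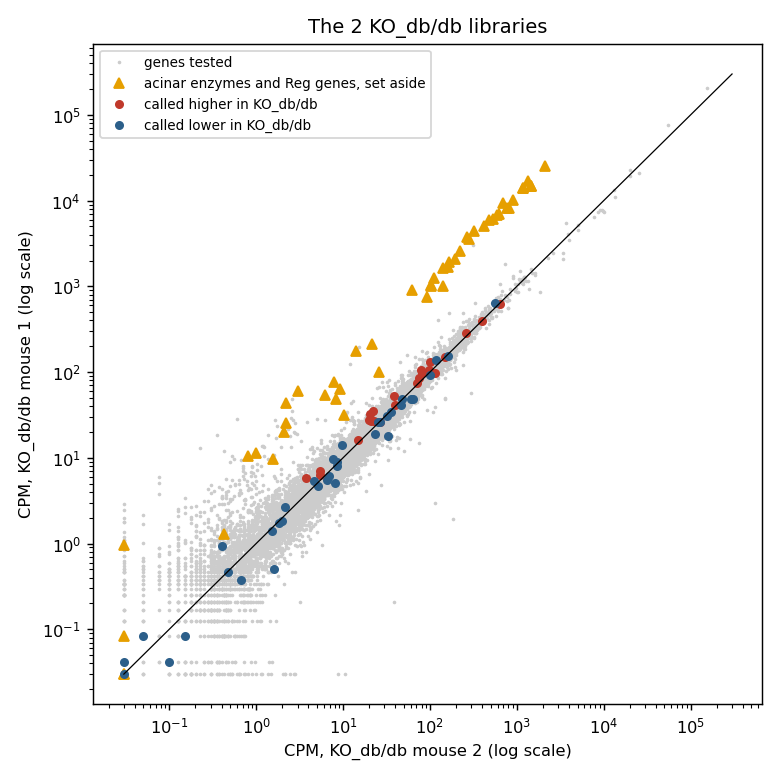
CPM of every gene in KO_db/db mouse 2 (x axis) and mouse 1 (y axis), both on log scales and with values below 0.03 drawn at 0.03. Triangles are acinar enzymes and Reg genes, nearly all above the diagonal of equal levels (Dnase1 and Reg4 were at 0 in both), and the 23 genes called higher and 36 called lower in KO_db/db lie near it. The test behind the calls favours genes on which the 2 libraries are close.

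Of the 13471 genes tested, 59 (0.438%) passed an adjusted p of 0.05 by edgeR with 4 libraries, and 23 of them (0.171%) rose and 36 (0.267%) fell in KO_db/db. DESeq2 called 688 genes higher and 621 lower on the same libraries. In the fit of all 7 libraries the same contrast called 866 of 13765 genes (6.29%), 515 higher (3.74%) and 351 lower (2.55%). It called 57, 40 higher and 17 lower, when KO_db/db mouse 1 was left out of it, an alternative chosen after seeing the data. Below, "passed", "rose" and "fell" refer to edgeR, with 4 libraries unless 7 are named, and counts by DESeq2 and without KO_db/db mouse 1 stand beside the calls of a list. A gene is said to lie above or below db/db without overlap when both KO_db/db libraries were on that side of both db/db libraries, which held above for 3664 genes (27.2%) and below for 4051 (30.1%). The median log2 fold change of all genes was -0.02. Functions are set against these shares. Of the 59 genes called, 55 were also called with all 7 libraries, and all 59 kept their direction in every alternative fit. Of the 59, 12 were called without KO_db/db mouse 1, 39 without KO_db/db mouse 2, 29 without db/db mouse 1 and 57 without db/db mouse 2. These fits called 17, 139, 50 and 417 genes in all. The 12 called without KO_db/db mouse 1 were Trpm5, Lpl, Fam151a and Tpm3-rs7, which rose, and Clmp, Slc1a1, Cd36, Rps13, Gpc6, Bmp3, Ache and Gm10288, which fell. With the mouse number as a replicate block 24 genes were called.

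**Figure D2:**
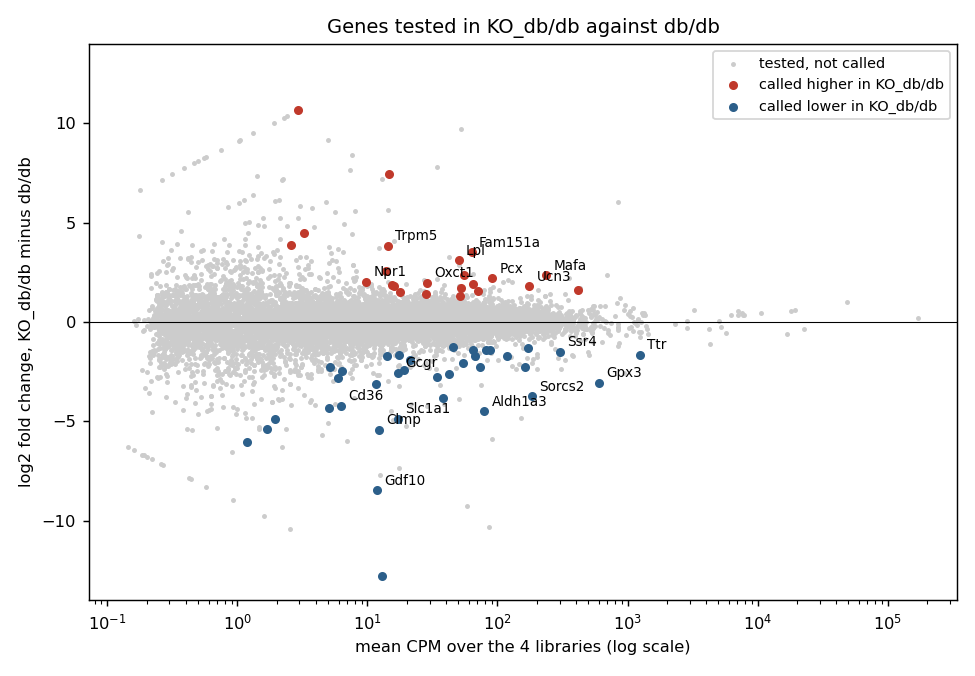
Log2 fold change of KO_db/db over db/db mice (y axis) by the mean CPM of the 4 libraries (x axis, log scale) for the 13471 genes tested. Red points are the 23 genes called higher and blue points the 36 called lower by edgeR at an adjusted p of 0.05.

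Of 23 transcription factors of the mature β-cell, 1 passed, Mafa, which rose. MAFA binds the insulin promoter and drives genes of glucose-stimulated secretion in adult β-cells. Its level (ENSMUSG00000047591.5, GRCm38 chromosome 15 from 75745490 to 75748228) was 394 and 394 CPM in KO_db/db, 60.0 and 95.6 CPM in db/db and 336 to 433 CPM in db/+. The KO_db/db libraries lay above both db/db libraries and inside the range of the db/+ libraries. Mafa rose (log2 fold change 2.35 ± 0.25, adjusted p = 0.0417). Mafa did not pass without KO_db/db mouse 1 (adjusted p of 0.0901). Pdx1, which sets β-cell fate, was at 119 and 130.2 CPM against 115 and 97.0 CPM. The groups overlapped for Nkx6-1 (218 and 219 CPM against 271 and 184 CPM) and Pax6 (176 and 197 CPM against 161 and 185 CPM). Mlxipl, which encodes the glucose-responsive factor ChREBP, was at 178 and 148 CPM against 92.9 and 106 CPM and missed the threshold of edgeR with 4 libraries but not with 7 (log2 fold change 0.73, adjusted p = 0.118 and 0.0413) or by DESeq2 on 4. Insm1, a zinc finger factor of endocrine cells, was at 167 and 159 CPM against 94.6 and 127 CPM (log2 fold change 0.57, adjusted p = 0.177 and 0.0599). Myt1, another, was at 49.8 and 44.4 CPM against 29.6 and 34.7 CPM (log2 fold change 0.56, adjusted p = 0.154 and 0.137). Of the 23 factors, 9 lay above and 5 below db/db without overlap, and their median log2 fold change was 0.12. Factors called by DESeq2 on 4 libraries numbered 2 higher and 0 lower, and those called by edgeR on all libraries but KO_db/db mouse 1 numbered 1 and 0. Outside the list, the repressor gene Hic1 was at 0.841 and 1.00 CPM against 3.18 and 2.38 CPM in db/db and 0.225 to 0.532 CPM in db/+ (log2 fold change -1.57, adjusted p = 0.139 and 0.104), without overlap. The groups overlapped for Tcf12 (29.4 and 27.2 CPM against 27.3 and 28.7 CPM) and Nr2f6 (25.5 and 19.5 CPM against 12.6 and 19.8 CPM).

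Among 25 genes of hormones, processing and granules, Ucn3 rose, and others lay on either side of db/db. Ucn3, urocortin 3, a peptide of mature β-cells that acts on δ-cells, was at 289 and 257 CPM in KO_db/db, 70.4 and 88.2 CPM in db/db and 579 to 603 CPM in db/+. Ucn3 rose in KO_db/db to a level between those of the other groups (log2 fold change 1.80 ± 0.18, adjusted p = 0.0344). Ucn3 did not pass without KO_db/db mouse 1 (adjusted p of 0.096). Ucn3 did not pass without db/db mouse 1 (adjusted p of 0.0508). Slc30a8 encodes ZnT8, which loads granules with zinc for insulin crystals, and was at 529 and 426 CPM against 173 and 189 CPM in db/db and 808 to 840.4 CPM in db/+. Its groups did not overlap, and it missed the threshold with 4 libraries and passed it with 7 (log2 fold change 1.42, adjusted p = 0.0518 and 0.0053). Nnat, neuronatin, which aids the processing of preproinsulin, showed 10.6 and 15.1 CPM against 1.95 and 3.50 CPM (log2 fold change 2.24, adjusted p = 0.0788 and 0.0215). Ero1b, an oxidase that helps proinsulin fold, was at 1156 and 1287 CPM against 617 and 741 CPM (log2 fold change 0.86, adjusted p = 0.0971 and 0.0321). In the other direction, the granule protein genes Chgb (2060.3 and 3427 CPM against 5289 and 6524 CPM), Scg5 (862 and 993 CPM against 1422 and 1755 CPM), Nucb2 (221 and 267 CPM against 874 and 676 CPM) and Pam (751 and 771 CPM against 1176 and 1212 CPM) were lower in both KO_db/db libraries. All 4 missed the threshold of edgeR with 4 libraries and passed it by DESeq2 on 4 and by edgeR with 7, with adjusted p from 0.0203 to 0.0464, and with 4 libraries Nucb2 came closest in edgeR (log2 fold change -1.65, adjusted p = 0.0505).

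The insulin genes themselves did not pass. Ins1 was at 75421 and 54633 CPM in KO_db/db, 45359 and 19467 CPM in db/db and 106828 to 127270.0 CPM in db/+ (log2 fold change 1.02, adjusted p = 0.245 and 0.127). Ins2 was at 206674 and 155976 CPM, 158479 and 164516 CPM and 268150.0 to 296540.0 CPM (log2 fold change 0.18, adjusted p = 0.617 and 0.594). For Ins1 the KO_db/db libraries lay above the db/db libraries, which differed from each other by more than the gap between the groups, and for Ins2 the groups overlapped and the fold change became -0.0401 without KO_db/db mouse 1. The convertase genes Pcsk1 (516 and 548 CPM against 549.8 and 560.2 CPM) and Pcsk2 (5175 and 5023 CPM against 4862 and 4989 CPM) did not pass. Iapp, amylin, was at 19481 and 20149.8 CPM against 28136 and 23456 CPM (log2 fold change -0.37, adjusted p = 0.273). Of the 25 genes, 10 lay above and 12 below db/db without overlap, and with 7 libraries 4 were called higher and 4 lower. Genes of the list called by DESeq2 on 4 libraries numbered 4 higher and 6 lower, and those called by edgeR on all libraries but KO_db/db mouse 1 numbered 2 and 0.

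**Figure D3:**
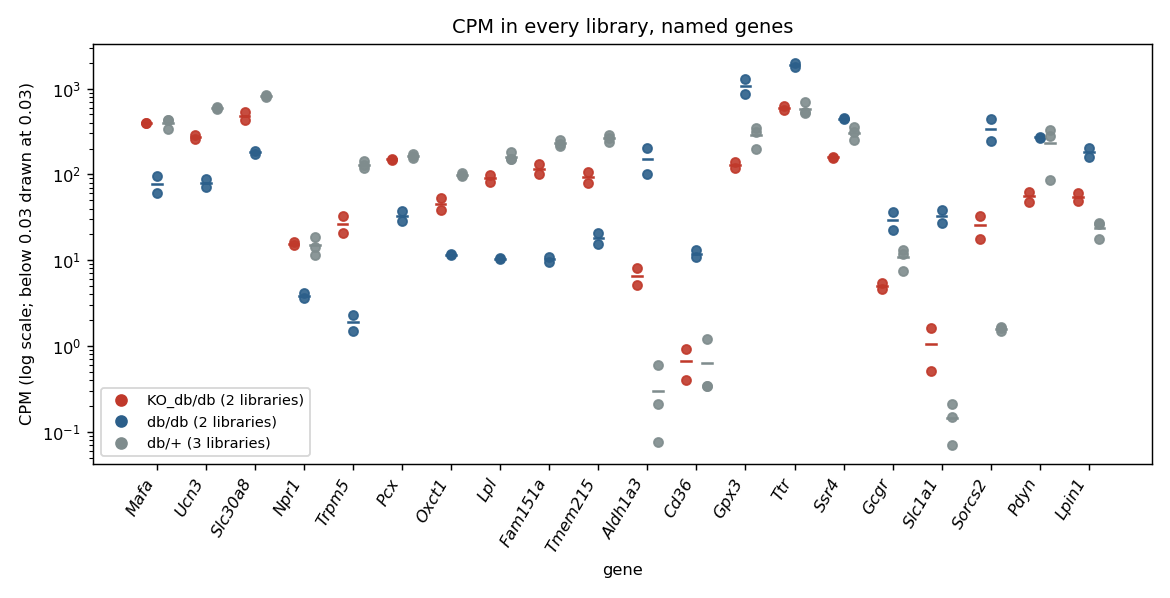
CPM in every library (log axis) for 20 of the genes named here, with KO_db/db in red, db/db in blue, db/+ in grey and a bar at each group's mean. Genes from Mafa to Tmem215 lay above and genes from Aldh1a3 to Lpin1 below db/db without overlap.

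In glucose metabolism, Pcx rose, and Lpin1, a gene of fat metabolism given beside these genes, fell. Slc2a2 lay above db/db, and the glucose-induced genes Txnip, Arrdc4 and Pfkfb3 below it, and these 4 missed the threshold of edgeR with 4 libraries but not with 7 or by DESeq2 on 4. Pcx encodes pyruvate carboxylase, which turns pyruvate into oxaloacetate and refills the TCA cycle. Its level (ENSMUSG00000024892.17, GRCm38 chromosome 19 from 4510472 to 4621752) was 152 and 147 CPM in KO_db/db, 28.4 and 37.5 CPM in db/db and 155 to 171 CPM in db/+. Pcx rose (log2 fold change 2.20 ± 0.18, adjusted p = 0.0303) to just below the lowest db/+ library. Pcx did not pass without KO_db/db mouse 1 (adjusted p of 0.0716). Slc2a2 was at 383 and 237 CPM against 135 and 68.8 CPM in db/db and 1093 to 1246 CPM in db/+, without overlap (log2 fold change 1.62, adjusted p = 0.127 and 0.033). The KATP channel genes did not pass. Kcnj11 was at 146 and 142 CPM against 108 and 128 CPM and Abcc8 at 672 and 627 CPM against 588 and 528 CPM. G6pc2, whose product removes phosphate from glucose 6-phosphate, differed more between the KO_db/db libraries (1805 and 722 CPM) than between the groups (db/db 1397 and 1147 CPM). Genes of glucose entry and sensing called by DESeq2 on 4 libraries numbered 3 higher and 3 lower, and those called by edgeR on all libraries but KO_db/db mouse 1 numbered 1 and 1.

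Txnip and Arrdc4, paired α-arrestin genes that glucose induces through ChREBP and MondoA and whose products curb glucose uptake, were lower in both KO_db/db libraries. Txnip was at 402 and 123 CPM in KO_db/db, 1876 and 1325 CPM in db/db and 149 to 240.2 CPM in db/+, and Arrdc4 at 14.0 and 18.4 CPM, 108 and 52.1 CPM and 8.02 to 11.0 CPM. Neither passed with 4 libraries by edgeR and both did with 7 (log2 fold change -2.59, adjusted p = 0.116 and 0.0308 for Txnip; log2 fold change -2.29, adjusted p = 0.0794 and 0.0144 for Arrdc4). The KO_db/db libraries differed from each other in Txnip but stayed below both db/db libraries. Pfkfb3, whose product raises the activator of phosphofructokinase, was at 6.65 and 7.73 CPM against 94.7 and 35.6 CPM (log2 fold change -3.16, adjusted p = 0.0764 and 0.0158). Lpin1, a phosphatidate phosphatase and coactivator of fat oxidation, was at 48.6 and 61.1 CPM against 201 and 159.9 CPM and fell (log2 fold change -1.71 ± 0.19, adjusted p = 0.044). Lpin1 did not pass without KO_db/db mouse 1 (adjusted p of 0.145). Lpin1 did not pass without KO_db/db mouse 2 (adjusted p of 0.0501). Lpin1 did not pass without db/db mouse 1 (adjusted p of 0.0584). Pklr, pyruvate kinase of liver type, did not pass, at 10.9 and 10.2 CPM against 64.3 and 12.3 CPM (log2 fold change -1.84, adjusted p = 0.233 and 0.104). It was higher in db/db mouse 1 than in any other of the 4 libraries.

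Txnip and Arrdc4, and Hmgcs1 of the sterol pathway described further on, had lower levels in KO_db/db together with others of their pathway. Their promoter windows are shown, with different letters marked in each. Each is the 250 bases before the RefSeq start site on GRCm38.p6, read 5′ to 3′ on the gene's strand, and capitals mark the letters searched for on both strands. For Arrdc4 (chr7:68749239-68749488, minus strand) they are the E-box CACGTG, which 6.02% of 32851 mouse promoter windows hold. For Txnip (chr3:96557707-96557956, plus strand) they are a pair of E-box-like letters, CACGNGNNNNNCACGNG, chosen after the window was seen and held by 15 windows (0.0457%), and this motif can overlap an E-box. For Hmgcs1 (chr13:119690101-119690350, plus strand) they are CACCCCAC, a form of the sterol regulatory element, held by 2.58% of windows. Of the 21 sterol list members with a window, Hmgcs1 alone held these letters, so its window is not typical of the list.
Txnip: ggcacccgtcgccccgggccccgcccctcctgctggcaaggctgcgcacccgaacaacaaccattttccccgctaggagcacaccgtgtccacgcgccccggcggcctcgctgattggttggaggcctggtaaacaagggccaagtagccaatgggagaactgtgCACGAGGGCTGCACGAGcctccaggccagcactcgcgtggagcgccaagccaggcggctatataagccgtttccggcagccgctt
Arrdc4: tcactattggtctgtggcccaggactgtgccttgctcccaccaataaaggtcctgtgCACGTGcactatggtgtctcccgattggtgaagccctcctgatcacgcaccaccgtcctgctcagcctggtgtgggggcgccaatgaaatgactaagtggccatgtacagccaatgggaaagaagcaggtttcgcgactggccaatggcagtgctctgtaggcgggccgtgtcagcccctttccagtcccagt
Hmgcs1: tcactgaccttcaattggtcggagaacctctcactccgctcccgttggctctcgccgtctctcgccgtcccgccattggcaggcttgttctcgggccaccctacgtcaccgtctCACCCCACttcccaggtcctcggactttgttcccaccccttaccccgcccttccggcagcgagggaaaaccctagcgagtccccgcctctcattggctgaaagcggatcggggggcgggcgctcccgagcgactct
The match began 85 bases before the start site of Txnip, 193 before that of Arrdc4 and 136 before that of Hmgcs1. A match describes the letters of the window and not a bound site.

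**Figure D4:**
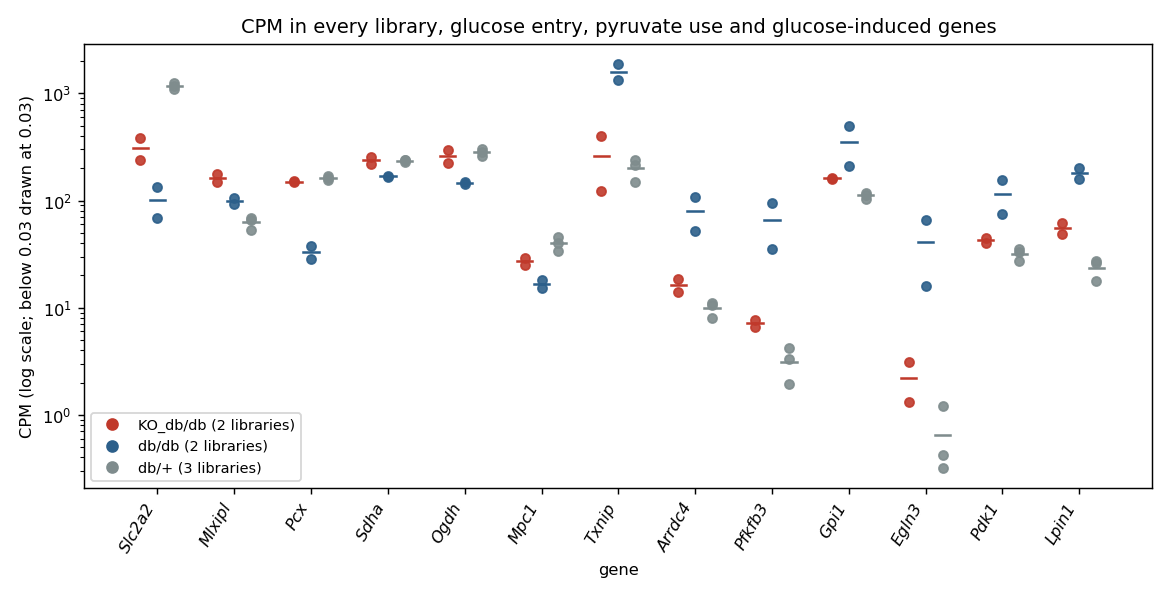
CPM in every library (log axis) for genes of glucose entry, ChREBP and mitochondrial metabolism, from Slc2a2 to Mpc1, and for genes induced by glucose or low oxygen and Lpin1, from Txnip on. KO_db/db is red, db/db blue and db/+ grey, with a bar at each group's mean, and every gene from Txnip to Lpin1 lies below db/db without overlap.

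By edgeR with 4 libraries 0 genes around the TCA cycle passed, with 7 at an unadjusted p under 0.05. Ogdh, of the oxoglutarate dehydrogenase complex, was at 297 and 222 CPM against 148 and 144 CPM (log2 fold change 0.85, adjusted p = 0.115 and 0.028). Mpc1, of the carrier that brings pyruvate into mitochondria, was at 29.3 and 25.2 CPM against 15.2 and 18.1 CPM (log2 fold change 0.72, adjusted p = 0.131 and 0.0529). Pdk1, a kinase that switches pyruvate dehydrogenase off, was at 45.0 and 40.2 CPM against 155 and 74.6 CPM (log2 fold change -1.42, adjusted p = 0.13 and 0.0383), with db/db mouse 1 highest. Of 37 genes of pyruvate entry, the TCA cycle and shuttles, 11 lay above and 11 below db/db without overlap, and the median log2 fold change was 0.02. With 7 libraries 2 were called higher, among them Ogdh, and 2 lower (Pdk1, Idh1). TCA genes called by DESeq2 on 4 libraries numbered 3 higher and 2 lower, and those called by edgeR on all libraries but KO_db/db mouse 1 numbered 0 and 0.

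Of 81 nuclear genes of the respiratory chain and ATP synthase, 17 lay above and 24 below db/db without overlap, with a median of -0.01. All were short of the threshold of edgeR with 4 libraries, with 4 at an unadjusted p under 0.05. Respiratory genes called by DESeq2 on 4 libraries numbered 2 higher and 2 lower, and those called by edgeR on all libraries but KO_db/db mouse 1 numbered 0 and 0. With 7, Sdha of complex II was called higher (257 and 221 CPM against 167 and 169 CPM, log2 fold change 0.53, adjusted p = 0.153 and 0.0436). The complex I genes Ndufa1 (41.0 and 49.3 CPM against 111 and 157 CPM, log2 fold change -1.56, adjusted p = 0.0682 and 0.00829) and Ndufc2 (37.7 and 35.8 CPM against 68.8 and 68.4 CPM, log2 fold change -0.89, adjusted p = 0.073 and 0.0114) were called lower. Of 24 genes of glycolysis and the response to low oxygen, 9 lay above and 4 below db/db without overlap. Gapdh was at 426 and 422 CPM against 444 and 410.4 CPM, and Aldoa at 454 and 392.3 CPM against 299 and 277 CPM (log2 fold change 0.57, adjusted p = 0.146 and 0.0553). Egln3, a prolyl hydroxylase gene that low oxygen induces, was at 1.30 and 3.11 CPM against 65.3 and 16.0 CPM in db/db and 0.319 to 1.20 CPM in db/+ (log2 fold change -4.14, adjusted p = 0.0967 and 0.0265). Vegfa was at 241 and 224 CPM against 164 and 164 CPM (log2 fold change 0.52, adjusted p = 0.139 and 0.0344). Gpi1 was at 161 and 161 CPM against 500.1 and 208 CPM (log2 fold change -1.12, adjusted p = 0.209). For Eno1 the groups overlapped, at 103 and 89.0 CPM against 365 and 56.1 CPM. Of the glycolysis list 0 passed edgeR with 4 libraries, 6 had an unadjusted p under 0.05, and with 7 there were 1 called higher and 1 lower. Glycolysis genes called by DESeq2 on 4 libraries numbered 2 higher and 2 lower, and those called by edgeR on all libraries but KO_db/db mouse 1 numbered 0 and 0.

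Of genes for fuels other than glucose, Lpl and Oxct1 rose and Cd36 fell. Lpl encodes lipoprotein lipase, which frees fatty acids from triglycerides (ENSMUSG00000015568.16, GRCm38 chromosome 8 from 68880491 to 68907448), and was at 97.9 and 82.1 CPM in KO_db/db, 10.3 and 10.6 CPM in db/db and 149 to 184 CPM in db/+. Lpl rose (log2 fold change 3.12 ± 0.16, adjusted p = 0.0134) and passed in all 11 alternative fits. Cd36, a fatty acid transporter, was at 0.926 and 0.401 CPM against 13.0 and 10.8 CPM in db/db and 0.338 to 1.21 CPM in db/+, and fell (log2 fold change -4.20 ± 0.44, adjusted p = 0.0381). Oxct1 encodes the enzyme that activates ketone bodies for use, and was at 52.8 and 38.4 CPM against 11.8 and 11.5 CPM in db/db and 94.7 to 105 CPM in db/+. It rose (log2 fold change 1.98 ± 0.21, adjusted p = 0.0375) to below the db/+ libraries. Oxct1 did not pass without KO_db/db mouse 1 (adjusted p of 0.0901). Oxct1 and Cd36 did not pass without db/db mouse 1 (adjusted p of 0.0658 and 0.068). Of 40 genes of lipid uptake, storage and oxidation, 14 lay above and 13 below db/db without overlap. Lipid genes called by DESeq2 on 4 libraries numbered 5 higher and 3 lower, and those called by edgeR on all libraries but KO_db/db mouse 1 numbered 1 and 0. Of β-oxidation genes that did not pass, Cpt1a was at 106 and 95.3 CPM against 98.5 and 117 CPM and Acadm at 18.2 and 15.6 CPM against 14.1 and 12.5 CPM.

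Genes of sterol synthesis lay lower in KO_db/db more often than higher. SREBP factors induce these enzymes when cells lack sterols. The list also holds genes of fatty acid synthesis. Of 31 genes tested, 2 lay above and 18 below db/db without overlap, and the median log2 fold change was -0.70 against -0.02 over all genes. By edgeR 0 passed with 4 libraries (18 at an unadjusted p under 0.05), and with 7 there were 8 called lower. Sterol genes called by DESeq2 on 4 libraries numbered 0 higher and 15 lower, and those called by edgeR on all libraries but KO_db/db mouse 1 numbered 0 and 0. Cyp51, lanosterol demethylase, was at 26.9 and 41.6 CPM in KO_db/db, 76.1 and 94.3 CPM in db/db and 32.9 to 44.5 CPM in db/+ (log2 fold change -1.30, adjusted p = 0.0936 and 0.0242). Hmgcs1, which makes HMG-CoA, was at 52.1 and 63.9 CPM, 103 and 167 CPM and 27.5 to 45.6 CPM (log2 fold change -1.21, adjusted p = 0.114 and 0.0493). Insig1, which retains SREBP in the ER, was at 148 and 188 CPM against 276 and 412 CPM (log2 fold change -1.02, adjusted p = 0.125 and 0.0425). Among the others called with 7 libraries, Sc5d was at 13.2 and 20.2 CPM against 41.1 and 35.5 CPM and Lss, lanosterol synthase, at 28.1 and 32.7 CPM against 50.3 and 77.2 CPM. Of fatty acid synthesis, the groups overlapped for Fasn at 152 and 141 CPM against 121 and 165 CPM and Acly at 1168 and 1098 CPM against 1619 and 879.5 CPM. The list's median ran from -1.05 without db/db mouse 1 to -0.47 without db/db mouse 2. Of the 21 list members with a RefSeq promoter window, 1 (Hmgcs1) held CACCCCAC and 4 (Dhcr7, Insig1, Sc5d, Hsd17b7) held CACGTG.

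Among 40 channels and pumps that shape the calcium signal, Trpm5 rose and 21 genes lay above db/db without overlap. Trpm5 encodes a calcium-activated cation channel that depolarises β-cells (ENSMUSG00000009246.14, GRCm38 chromosome 7 from 143069153 to 143094642), and was at 32.6 and 20.7 CPM in KO_db/db, 2.29 and 1.49 CPM in db/db and 118 to 143 CPM in db/+. The KO_db/db libraries lay above db/db and below db/+, and Trpm5 rose (log2 fold change 3.84 ± 0.35, adjusted p = 0.0303) and passed in all 11 alternative fits. Atp2a3, a SERCA pump that loads the ER with calcium, was at 1249 and 912 CPM against 583 and 556 CPM (log2 fold change 0.94, adjusted p = 0.111 and 0.0321). Itpr3, an IP3 receptor that releases it, was at 141 and 118 CPM against 36.1 and 54.8 CPM (log2 fold change 1.53, adjusted p = 0.0765 and 0.0114). The voltage-gated calcium channel genes Cacna1c (43.8 and 54.9 CPM against 39.4 and 41.8 CPM) and Cacna1d (118 and 103 CPM against 68.7 and 96.1 CPM) did not pass. Scn3a, a sodium channel gene, was lower at 19.9 and 26.1 CPM against 53.2 and 53.7 CPM (log2 fold change -1.20, adjusted p = 0.0733 and 0.057). Kcnq1 passed with 7 libraries at 5.39 and 0.778 CPM against 0.0305 and 0.174 CPM, with mouse 1 of KO_db/db over 4 times mouse 2, a ratio seen in the acinar genes. Of the 40 genes, 21 lay above and 4 below db/db without overlap, with a median of 0.32. Channel genes called by DESeq2 on 4 libraries numbered 7 higher and 3 lower, and those called by edgeR on all libraries but KO_db/db mouse 1 numbered 1 and 0. Atp1b2, a subunit of the sodium pump outside this list, was at 85.4 and 74.3 CPM against 25.9 and 23.8 CPM and rose (log2 fold change 1.70 ± 0.15, adjusted p = 0.0303). Fkbp1b, which binds ryanodine receptors, was at 74.6 and 71.1 CPM against 29.2 and 30.8 CPM and rose (log2 fold change 1.29 ± 0.13, adjusted p = 0.0374). Atp1b2 and Fkbp1b did not pass without KO_db/db mouse 1 (adjusted p of 0.0901 and 0.135). Fkbp1b did not pass without KO_db/db mouse 2 (adjusted p of 0.06). Atp1b2 and Fkbp1b did not pass without db/db mouse 1 (adjusted p of 0.0508 and 0.0659).

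Of 34 genes of granule docking and fusion, 19 lay above and 7 below db/db without overlap, with a median of 0.23. By edgeR 0 passed with 4 libraries (15 at an unadjusted p under 0.05), and with 7 there were 6 called higher and 2 lower. Fusion genes called by DESeq2 on 4 libraries numbered 7 higher and 2 lower, and those called by edgeR on all libraries but KO_db/db mouse 1 numbered 0 and 0. Rims3 of the active zone was at 229 and 186 CPM against 66.0 and 114 CPM (log2 fold change 1.22, adjusted p = 0.125 and 0.0398). Sytl4, granuphilin, which docks insulin granules, was at 160.2 and 129 CPM against 66.2 and 70.9 CPM in db/db and 287 to 396 CPM in db/+ (log2 fold change 1.09, adjusted p = 0.0756 and 0.019). Rab37, a granule GTPase, was at 150.2 and 178 CPM against 62.2 and 95.9 CPM (log2 fold change 1.06, adjusted p = 0.118 and 0.0262). Cadps, which primes dense-core vesicles, was at 94.3 and 80.8 CPM against 37.9 and 54.4 CPM (log2 fold change 0.94, adjusted p = 0.121 and 0.028). Of the synaptotagmin genes, Syt5 was lower at 35.5 and 41.7 CPM against 91.9 and 86.4 CPM (log2 fold change -1.19, adjusted p = 0.0505 and 0.0213) and Syt9 at 17.5 and 17.1 CPM against 32.1 and 39.4 CPM (log2 fold change -1.04, adjusted p = 0.0788 and 0.0227). The calcium sensor gene Syt7 was at 336 and 348 CPM against 296 and 305 CPM, and the SNARE genes Snap25 (157 and 177 CPM against 163 and 173 CPM) and Vamp2 (298 and 312 CPM against 272 and 223 CPM) did not pass.

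Among cell surface receptors and cAMP signalling genes, 1 gene rose and 1 fell. Npr1 encodes the receptor of atrial natriuretic peptide, which makes cGMP, and was at 16.2 and 15.0 CPM in KO_db/db, 4.15 and 3.60 CPM in db/db and 11.5 to 18.7 CPM in db/+. Npr1 rose to within the range of the db/+ libraries (log2 fold change 2.02 ± 0.20, adjusted p = 0.0335). Gcgr, the glucagon receptor, was at 5.39 and 4.59 CPM against 36.8 and 22.2 CPM in db/db and 7.44 to 13.1 CPM in db/+, and fell (log2 fold change -2.55 ± 0.29, adjusted p = 0.0474). Npr1 and Gcgr did not pass without KO_db/db mouse 1 (adjusted p of 0.108 and 0.111). Gcgr did not pass without KO_db/db mouse 2 (adjusted p of 0.0672). Npr1 and Gcgr did not pass without db/db mouse 1 (adjusted p of 0.0549 and 0.0508). The incretin receptor genes did not pass, with Glp1r at 124 and 110.0 CPM against 53.8 and 91.2 CPM and Gipr at 7.95 and 10.3 CPM against 4.12 and 6.20 CPM in db/db and 22.8 to 27.9 CPM in db/+. Igf1r was at 75.8 and 81.0 CPM against 32.9 and 47.3 CPM (log2 fold change 0.98, adjusted p = 0.109 and 0.0227). Adora1, an adenosine receptor, was at 44.5 and 27.0 CPM against 15.4 and 11.2 CPM (log2 fold change 1.44, adjusted p = 0.109 and 0.0298). Ptger3, a prostaglandin E2 receptor that lowers cAMP, was at 5.30 and 1.00 CPM against 328 and 28.1 CPM in db/db and 0.300 to 0.994 CPM in db/+ (log2 fold change -5.87, adjusted p = 0.13 and 0.0355), without overlap but with a wide gap between the 2 db/db mice. Cckar, a receptor that acinar cells carry, was at 19.4 and 2.81 CPM against 0.397 and 0.0992 CPM, again with mouse 1 far above mouse 2. Of the 41 genes, 16 lay above and 10 below db/db without overlap. Receptor genes called by DESeq2 on 4 libraries numbered 5 higher and 4 lower, and those called by edgeR on all libraries but KO_db/db mouse 1 numbered 0 and 0.

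Genes listed for endocrine progenitors and dedifferentiation other than Aldh1a3 lay lower more often than higher. Transcription factor genes of the list went both ways. Like the other lists, this list was chosen with earlier results of these data known. Of 16 tested, 2 lay above and 8 below db/db without overlap, with a median of -0.35. By edgeR 0 passed with 4 libraries (8 at an unadjusted p under 0.05), and with 7 there were 5 called lower and 1 higher. Progenitor genes called by DESeq2 on 4 libraries numbered 1 higher and 5 lower, and those called by edgeR on all libraries but KO_db/db mouse 1 numbered 0 and 0. Cck, cholecystokinin, was at 0.126 and 1.71 CPM in KO_db/db, 57.2 and 19.8 CPM in db/db and 0.0355 to 0.254 CPM in db/+ (log2 fold change -5.23, adjusted p = 0.0905 and 0.0211). Serpina7, which encodes a thyroxine-binding globulin, was at 70.8 and 39.5 CPM against 254 and 221 CPM (log2 fold change -2.09, adjusted p = 0.073 and 0.0206). Gc, the vitamin D binding protein, was at 304 and 210.3 CPM against 703 and 765 CPM in db/db and 64.1 to 131 CPM in db/+ (log2 fold change -1.50, adjusted p = 0.0733 and 0.0431). Gast, gastrin, was at 0.505 and 0.677 CPM against 3.33 and 3.87 CPM (log2 fold change -2.57, adjusted p = 0.0765 and 0.0414). Tnfrsf11b, osteoprotegerin, was at 8.29 and 7.53 CPM against 26.1 and 18.3 CPM in db/db and 10.7 to 18.7 CPM in db/+ (log2 fold change -1.48, adjusted p = 0.0765 and 0.0292). Its db/+ libraries thus lay above KO_db/db and overlapped db/db. For all 5 the KO_db/db libraries lay below both db/db libraries. The progenitor factor Neurog3 did not pass, at 11.3 and 9.06 CPM against 4.55 and 9.30 CPM in db/db and 1.69 to 2.63 CPM in db/+, and the groups overlapped. Sox9 was near 1 CPM in KO_db/db (1.01 and 1.05 CPM) against 0.122 and 0.198 CPM. The groups overlapped for Sox4 (92.5 and 47.6 CPM against 39.1 and 71.2 CPM) and Hes1 (3.70 and 2.73 CPM against 2.87 and 1.96 CPM). Bach2 (3.53 and 3.31 CPM against 5.47 and 5.06 CPM) and Myc (4.33 and 1.35 CPM against 6.63 and 4.34 CPM) lay below db/db and did not pass. Fev, a factor of endocrine precursors, was called higher with 7 libraries. It was at 4.08 and 2.91 CPM against 0.916 and 0.471 CPM in db/db and 1.46 to 3.30 CPM in db/+, so that db/+ also lay above db/db. Of 12 genes that mature β-cells keep low, 1 reached 10 CPM in any of the 4 libraries, the lactate dehydrogenase gene Ldha (10.5 and 0.527 CPM against 0.183 and 0.942 CPM). It was high in KO_db/db mouse 1 only. The median of the 12 was 1.37 with all 4 libraries and 0.22 without that mouse.

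In the secretory pathway, Ssr4 and Sec11c fell. Ssr4 encodes a subunit of the complex that assists the entry of proteins into the ER, and was at 156 and 160.4 CPM in KO_db/db, 455 and 439 CPM in db/db and 252 to 352 CPM in db/+ (log2 fold change -1.49 ± 0.14, adjusted p = 0.0303). Sec11c, a signal peptidase subunit, was at 93.4 and 100.3 CPM against 264 and 225 CPM (log2 fold change -1.32 ± 0.15, adjusted p = 0.0449). The chaperone genes that define the unfolded protein response did not pass. The groups overlapped for Hspa5, BiP, at 1269 and 1257 CPM against 1298 and 1031 CPM, Hsp90b1 at 1091 and 1156 CPM against 1264 and 989 CPM and Xbp1 at 246 and 209 CPM against 220.4 and 162 CPM. Of 40 ER genes, 5 lay above and 13 below db/db without overlap, and the median was -0.07. ER genes called by DESeq2 on 4 libraries numbered 0 higher and 1 lower, and those called by edgeR on all libraries but KO_db/db mouse 1 numbered 0 and 0. Retreg1, a receptor for the turnover of ER by autophagy, was at 30.9 and 31.8 CPM against 107 and 96.8 CPM and fell (log2 fold change -1.69 ± 0.13, adjusted p = 0.0301). Ssr4, Sec11c and Retreg1 did not pass without KO_db/db mouse 1 (adjusted p of 0.135, 0.193 and 0.108). Ssr4 and Sec11c did not pass without KO_db/db mouse 2 (adjusted p of 0.0684 and 0.0843). Sec11c did not pass without db/db mouse 1 (adjusted p of 0.0596).

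Of 30 targets of ATF4 in the integrated stress response, 13 lay above and 3 below db/db without overlap, with a median of 0.32. By edgeR 0 passed with 4 libraries (8 at an unadjusted p under 0.05) and 5 were called higher with 7. ATF4 targets called by DESeq2 on 4 libraries numbered 6 higher and 0 lower, and those called by edgeR on all libraries but KO_db/db mouse 1 numbered 1 and 0. Pck2, mitochondrial PEP carboxykinase, was at 81.3 and 76.6 CPM against 39.1 and 44.9 CPM in db/db and 80.1 to 81.9 CPM in db/+ (log2 fold change 0.92, adjusted p = 0.0765 and 0.00879). Shmt2, of mitochondrial serine use, was at 18.5 and 14.5 CPM against 7.06 and 8.38 CPM (log2 fold change 1.11, adjusted p = 0.0971 and 0.0188), Atf5 at 68.6 and 83.6 CPM against 43.4 and 43.0 CPM (log2 fold change 0.83, adjusted p = 0.0905 and 0.0208). Slc3a2, an amino acid transporter subunit, was at 174 and 158 CPM against 85.6 and 106 CPM (log2 fold change 0.80, adjusted p = 0.108 and 0.0217). Nupr1 was at 132 and 44.9 CPM against 14.4 and 9.60 CPM (log2 fold change 2.89, adjusted p = 0.0949 and 0.0186) and is also on the list of acinar genes other than enzymes, whose sums were 3689 and 703 CPM in KO_db/db and 577 and 468 CPM in db/db. The stress genes Atf4 (81.1 and 105 CPM against 190.1 and 106 CPM), Ddit3 (5.05 and 14.9 CPM against 8.95 and 9.60 CPM) and Trib3 (2.15 and 9.31 CPM against 3.79 and 2.58 CPM) did not pass.

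Of 77 cytosolic ribosomal protein genes, 63 lay below and 1 above db/db without overlap, with a median of -0.29. Rplp0 of the ribosomal stalk, for example, was at 596 and 549 CPM against 809.6 and 860.2 CPM (log2 fold change -0.53, adjusted p = 0.149 and 0.0476). Ribosomal genes called by DESeq2 on 4 libraries numbered 0 higher and 6 lower, and those called by edgeR on all libraries but KO_db/db mouse 1 numbered 0 and 1. Rps13 passed edgeR with 4 libraries, the other 76 not, at 4.71 and 5.14 CPM against 68.6 and 74.4 CPM in db/db and 5.57 to 6.68 CPM in db/+ (log2 fold change -3.84 ± 0.16, adjusted p = 0.0114). It has near-identical copies among which the counting program may have divided its reads, so its level is uncertain. Of 77 mitochondrial ribosomal protein genes, 3 lay above and 28 below db/db without overlap, with a median of -0.13 and 0 called by edgeR with 4 or 7 libraries or by DESeq2 (4 at an unadjusted p under 0.05 with 4).

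Gpx3 encodes an extracellular glutathione peroxidase and was at 138 and 119 CPM in KO_db/db, 859.9 and 1293 CPM in db/db and 198 to 349 CPM in db/+. It fell to below all other libraries (log2 fold change -3.05 ± 0.25, adjusted p = 0.0303). Gpx3 did not pass without KO_db/db mouse 1 (adjusted p of 0.0721). Of the other antioxidant genes, Prdx4, a peroxidase of the ER, was at 27.1 and 25.6 CPM against 54.4 and 71.9 CPM (log2 fold change -1.25, adjusted p = 0.0733 and 0.00903). Nqo1 was at 7.32 and 4.54 CPM against 1.53 and 2.28 CPM (log2 fold change 1.64, adjusted p = 0.125 and 0.0298). The metallothionein genes Mt1 (164 and 139 CPM against 76.0 and 104 CPM) and Mt2 (92.1 and 76.9 CPM against 48.4 and 57.5 CPM) were higher in both KO_db/db libraries and did not pass. Superoxide dismutase and catalase did not pass either, with Sod1 at 158 and 199 CPM against 165 and 174 CPM and Cat at 8.04 and 4.04 CPM against 4.22 and 5.08 CPM. Of 29 genes tested, 11 lay above and 7 below db/db without overlap. Antioxidant genes called by DESeq2 on 4 libraries numbered 3 higher and 2 lower, and those called by edgeR on all libraries but KO_db/db mouse 1 numbered 0 and 1.

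Immediate early genes, which activity and stress switch on within minutes, had the lowest median of the 25 function lists, -1.51, with 14 of 20 below and 0 above db/db without overlap. Fos was at 56.5 and 299.9 CPM in KO_db/db, 804 and 374 CPM in db/db and 122 to 139 CPM in db/+, and Egr1 at 121 and 238 CPM, 766 and 362 CPM and 30.7 to 43.0 CPM. Jun was at 34.0 and 107 CPM against 403 and 189 CPM in db/db. For these genes KO_db/db mouse 1 was lowest and db/db mouse 1 highest of the 4 libraries. By edgeR 0 of the list passed with 4 libraries (8 at an unadjusted p under 0.05; log2 fold change -1.71, adjusted p = 0.283 for Fos). Immediate early genes called by DESeq2 on 4 libraries numbered 0 higher and 2 lower, and those called by edgeR on all libraries but KO_db/db mouse 1 numbered 0 and 0. The list's median was -0.75 without db/db mouse 1 and -2.24 without KO_db/db mouse 2. Among 19 clock genes, Nr1d1, REV-ERBα, was at 217 and 196 CPM against 20.8 and 82.6 CPM in db/db and 30.4 to 33.8 CPM in db/+ (log2 fold change 2.01, adjusted p = 0.167 and 0.0568). Bhlhe40 was at 19.6 and 15.4 CPM against 57.3 and 41.8 CPM (log2 fold change -1.49, adjusted p = 0.0759 and 0.0355). Clock itself was at 63.0 and 68.6 CPM against 79.7 and 60.7 CPM. Clock genes called by DESeq2 on 4 libraries numbered 2 higher and 2 lower, and those called by edgeR on all libraries but KO_db/db mouse 1 numbered 0 and 0. The time of day at which islets were taken is not given in the sources used here.

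Of the genes of DNA replication and mitosis 0 passed edgeR with 4 or 7 libraries or DESeq2, and 3 had an unadjusted p under 0.05 with 4. Mki67 was at 5.22 and 4.84 CPM in KO_db/db, 2.08 and 9.50 CPM in db/db and 0.781 to 1.06 CPM in db/+ (log2 fold change -0.20, adjusted p = 0.887 and 0.862), with both KO_db/db libraries between the 2 db/db libraries. Its log2 fold change was 1.29 without db/db mouse 2. Of 33 genes tested, 2 lay above and 5 below db/db without overlap, 3 reached 10 CPM in any of the 4 libraries, and the list's median ran from -0.77 without db/db mouse 1 to 0.70 without mouse 2. Among D-type cyclins, Ccnd2, the main one of mouse β-cells, was at 752 and 609.9 CPM against 414 and 382 CPM in db/db and 769 to 873 CPM in db/+ (log2 fold change 0.79, adjusted p = 0.113 and 0.028). Ccnd1 was at 119 and 96.4 CPM against 67.2 and 65.5 CPM (log2 fold change 0.71, adjusted p = 0.115 and 0.0917). Nr5a2, a nuclear receptor of acinar cells, was at 2.61 and 0.702 CPM against 0.0611 and 0.298 CPM (log2 fold change 3.15, adjusted p = 0.185 and 0.132). Its level in db/db mouse 1 was under the detection floor of 3 counts, so the fold is uncertain. By DESeq2 on 4 libraries Nr5a2 passed (adjusted p = 0.0422). The study reports higher NR5A2 in sorted β-cells and more NR5A2-positive β-cells by staining in KO_db/db mice.

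Retinoid genes around ALDH1A3 showed no common direction. The retinoic acid receptor genes Rara (13.5 and 11.7 CPM against 10.1 and 7.91 CPM) and Rxra (82.5 and 78.0 CPM against 63.5 and 87.3 CPM) did not pass, Cyp26b1, which degrades retinoic acid, was under 0.5 CPM in all 4 libraries, and Rarb had 0 CPM. Ttr, transthyretin, which carries thyroxine and retinol-binding protein and is abundant in α-cells and β-cells, was at 631 and 567 CPM in KO_db/db, 1985 and 1782 CPM in db/db and 518 to 696 CPM in db/+. It fell to within the range of the db/+ libraries (log2 fold change -1.64 ± 0.16, adjusted p = 0.0335). Ttr did not pass without KO_db/db mouse 1 (adjusted p of 0.115). Ttr did not pass without KO_db/db mouse 2 (adjusted p of 0.0707). The α-cell hormone gene Gcg, glucagon, was at 1051 and 639 CPM against 627 and 362 CPM (log2 fold change 0.79, adjusted p = 0.271). Rbp4, retinol-binding protein 4, was at 20.3 and 17.4 CPM against 6.32 and 4.74 CPM (log2 fold change 1.78, adjusted p = 0.0535 and 0.0921), is also a δ-cell marker, and stood beside the δ-cell hormone gene Sst, whose values are given above. Retinoid genes called by DESeq2 on 4 libraries numbered 1 higher and 3 lower, and those called by edgeR on all libraries but KO_db/db mouse 1 numbered 0 and 0. Dhrs3, a retinaldehyde reductase gene that retinoic acid induces, was at 3.24 and 1.10 CPM against 17.5 and 3.42 CPM in db/db and 0.0355 to 0.423 CPM in db/+ (log2 fold change -2.27, adjusted p = 0.231 and 0.147).

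Interferon and antigen presentation genes were divided, with 9 of 26 above and 7 below db/db without overlap and 0 past edgeR with 4 libraries (10 at an unadjusted p under 0.05). Interferon genes called by DESeq2 on 4 libraries numbered 1 higher and 2 lower, and those called by edgeR on all libraries but KO_db/db mouse 1 numbered 0 and 0. Usp18, an interferon-induced protease, was at 7.15 and 8.50 CPM against 32.8 and 16.5 CPM (log2 fold change -1.64, adjusted p = 0.113 and 0.0265). The class I genes H2-K1 (116 and 196 CPM against 357 and 220.0 CPM) and H2-D1 (50.2 and 149.7 CPM against 384 and 221 CPM) did not pass and belong to a family of near-identical genes, while the proteasome subunit gene Psmb10 was at 12.5 and 8.45 CPM against 4.86 and 6.62 CPM. Among 23 adhesion genes, 12 lay above and 4 below db/db without overlap, with a median of 0.30. Adhesion genes called by DESeq2 on 4 libraries numbered 4 higher and 1 lower, and those called by edgeR on all libraries but KO_db/db mouse 1 numbered 0 and 0. Clmp, an adhesion molecule of the tight junction family, was at 0.379 and 0.677 CPM in KO_db/db, 27.0 and 21.2 CPM in db/db and 0.0751 to 0.804 CPM in db/+ and fell (log2 fold change -5.43 ± 0.32, adjusted p = 0.0134). Robo2, a Slit receptor of islet architecture, was at 88.2 and 75.9 CPM against 39.8 and 24.8 CPM (log2 fold change 1.36, adjusted p = 0.0907 and 0.0215). Nlgn2, neuroligin 2, was at 88.7 and 84.5 CPM against 38.7 and 59.1 CPM (log2 fold change 0.84, adjusted p = 0.146 and 0.0474). E-cadherin, Cdh1, was at 449 and 433 CPM against 353 and 370.0 CPM (log2 fold change 0.30, adjusted p = 0.282 and 0.141).

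**Figure D5:**
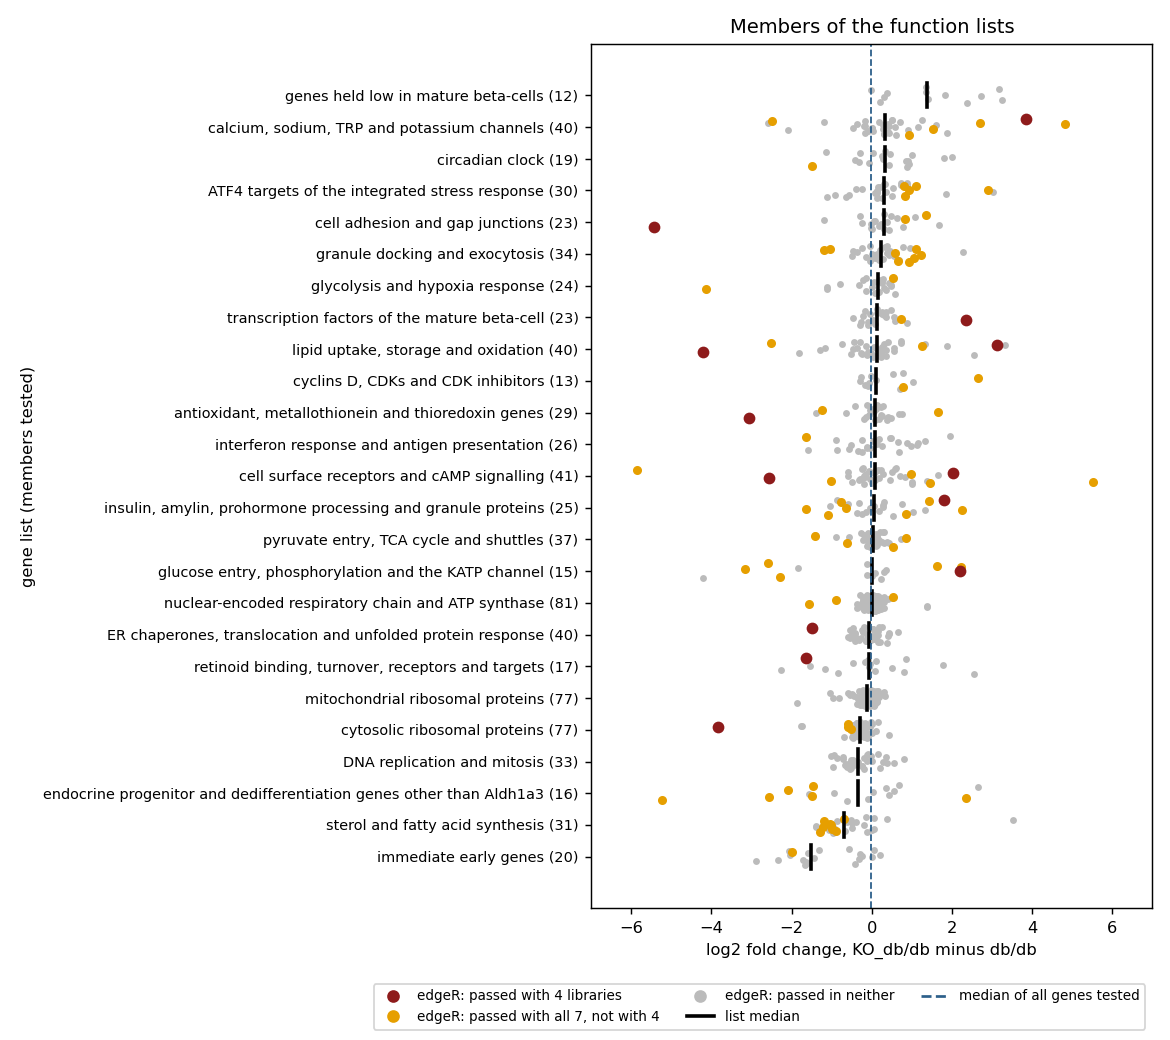
Log2 fold change of KO_db/db over db/db mice (x axis) for every tested member of the 25 function lists (y axis, ordered by median, with the number of members tested). Dark red points passed edgeR with 4 libraries, orange points edgeR with all 7 but not with 4, grey points neither, black bars mark the list medians and the dashed line the median of all genes, -0.02.

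Other rises were of genes outside the lists. Fam151a was at 132 and 101 CPM in KO_db/db, 11.0 and 9.42 CPM in db/db and 216 to 254 CPM in db/+ (log2 fold change 3.53 ± 0.20, adjusted p = 0.0134). Tmem215, an ER membrane protein gene, was at 106 and 79.4 CPM against 20.7 and 15.4 CPM in db/db and 239 to 289.7 CPM in db/+ (log2 fold change 2.38 ± 0.23, adjusted p = 0.0335). Carmil3, which regulates actin capping, was at 27.4 and 19.9 CPM against 3.21 and 4.71 CPM (log2 fold change 2.58 ± 0.28, adjusted p = 0.0432). Celsr1, an atypical cadherin, was at 7.11 and 5.42 CPM against 0.214 and 0.347 CPM (log2 fold change 4.46 ± 0.42, adjusted p = 0.0335). Papss2, which makes the sulfate donor PAPS, was at 618 and 634 CPM against 212 and 205 CPM in db/db and 671 to 697 CPM in db/+ (log2 fold change 1.60 ± 0.14, adjusted p = 0.0303). Tle3, a Groucho corepressor, was at 105 and 98.4 CPM against 27.8 and 26.7 CPM in db/db and 57.3 to 66.7 CPM in db/+ (log2 fold change 1.92 ± 0.13, adjusted p = 0.0193), so that KO_db/db exceeded both other groups. Maob, which degrades monoamines, was at 98.6 and 113 CPM against 39.6 and 33.9 CPM (log2 fold change 1.54 ± 0.15, adjusted p = 0.0352). All of these genes lay above db/db without overlap. Tmem215, Carmil3, Celsr1, Papss2, Tle3 and Maob did not pass without KO_db/db mouse 1 (adjusted p of 0.0727, 0.092, 0.0901, 0.0928, 0.0703 and 0.0914). Maob did not pass without KO_db/db mouse 2 (adjusted p of 0.0512). Carmil3, Celsr1 and Maob did not pass without db/db mouse 1 (adjusted p of 0.0596, 0.0549 and 0.0533). Tpm3-rs7 was at 35.3 and 22.4 CPM against 0.0916 and 0.223 CPM (log2 fold change 7.45 ± 0.46, adjusted p = 0.0134). It was at 0.296, 19.6 and 1.06 CPM in the 3 db/+ libraries, is a near copy of Tpm3 whose level is uncertain, and did not pass with all 7 libraries (adjusted p = 0.0611).

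Other falls were of genes outside the lists. Gdf10 and Bmp3, closely related ligands of the TGF-β superfamily, both fell. Gdf10 was at 0.0841 and 0.0502 CPM in KO_db/db, at or under the detection floor of 3 counts per library, and at 34.1 and 13.6 CPM in db/db (adjusted p = 0.0303, with no fold given). Bmp3 was at 9.63 and 7.68 CPM against 60.6 and 58.2 CPM (log2 fold change -2.77 ± 0.18, adjusted p = 0.0159). The db/+ libraries held 0.0375 to 0.142 CPM of Gdf10 and 0.319 to 2.07 CPM of Bmp3. Slc1a1, a neuronal glutamate transporter, was at 0.505 and 1.61 CPM against 38.6 and 27.5 CPM in db/db and 0.0710 to 0.211 CPM in db/+ (log2 fold change -4.87 ± 0.50, adjusted p = 0.0374). Sorcs2, a sorting receptor of the VPS10 family, was at 17.9 and 33.1 CPM against 437 and 248 CPM in db/db and 1.48 to 1.67 CPM in db/+ (log2 fold change -3.73 ± 0.42, adjusted p = 0.044). Basp1, a growth cone protein gene, was at 2.69 and 2.13 CPM against 16.9 and 24.6 CPM (log2 fold change -3.10 ± 0.28, adjusted p = 0.0303). Pdyn, prodynorphin, was at 48.2 and 63.2 CPM against 269 and 273 CPM (log2 fold change -2.27 ± 0.18, adjusted p = 0.03), while its db/+ libraries spread over 86.8 to 328 CPM. Ache, acetylcholinesterase, was at 14.0 and 9.66 CPM against 80.9 and 65.8 CPM (log2 fold change -2.62 ± 0.24, adjusted p = 0.0303). All of these genes lay below db/db without overlap. Gdf10, Sorcs2, Basp1 and Pdyn did not pass without KO_db/db mouse 1 (adjusted p of 0.0659, 0.0873, 0.0721 and 0.0736). Slc1a1 did not pass without db/db mouse 1 (adjusted p of 0.0549).

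Ndst4, of heparan sulfate synthesis, was at 1.39 and 1.51 CPM against 10.3 and 10.4 CPM (log2 fold change -2.82 ± 0.24, adjusted p = 0.0303). Gpc6, a glypican that carries heparan sulfate, was at 0.463 and 0.477 CPM against 9.96 and 9.40 CPM (log2 fold change -4.34 ± 0.29, adjusted p = 0.0159). Of exchange factors for small GTPases, Rapgef5 was at 19.1 and 23.2 CPM against 91.2 and 84.6 CPM (log2 fold change -2.04 ± 0.16, adjusted p = 0.0298) and Rasgrf2 at 41.1 and 46.5 CPM against 114 and 122 CPM (log2 fold change -1.42 ± 0.14, adjusted p = 0.0335). Cd200, a surface ligand that restrains macrophages, was at 48.3 and 47.7 CPM against 128 and 126 CPM in db/db and 53.2 to 71.2 CPM in db/+ (log2 fold change -1.39 ± 0.13, adjusted p = 0.0303). C8b, a complement component gene, was at 26.0 and 25.01 CPM against 127 and 118 CPM in db/db and 21.04 to 39.1 CPM in db/+ (log2 fold change -2.25 ± 0.14, adjusted p = 0.0134). Fam107b was at 34.3 and 35.4 CPM in KO_db/db, 102 and 87.0 CPM in db/db and 1.84 to 2.66 CPM in db/+ (log2 fold change -1.42 ± 0.14, adjusted p = 0.0357), so that KO_db/db lay between the other groups. Ndst4, Rapgef5, Rasgrf2, Cd200, C8b and Fam107b did not pass without KO_db/db mouse 1 (adjusted p of 0.0858, 0.0858, 0.151, 0.135, 0.0659 and 0.15). Rasgrf2, Cd200 and Fam107b did not pass without KO_db/db mouse 2 (adjusted p of 0.06, 0.0684 and 0.0684). Ndst4, Rasgrf2, Cd200 and Fam107b did not pass without db/db mouse 1 (adjusted p of 0.0549, 0.0515, 0.0508 and 0.0533). The other genes called were Skap1, Sfrp5, Ift172, B630019K06Rik, Gm10036 and Hdac1-ps among the rises, and Kcnj13, Pde11a, Tmem252, Susd2, Mapk4, Tesc, Astn1, Vwde, Vstm2a, Tspan33 and Gm10288 among the falls.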

How the data were processed

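The 7 RNA-seq libraries were grouped by the sample labels. The authors deposited 1 table of estimated counts per gene symbol from kallisto, as whole numbers without normalization. The submitters' processing notes name bcl2fastq 2.19, kallisto 0.44.0 and GRCm38, and the annotation release is not given in the sources used here. kallisto divides reads among similar transcripts, so levels of near-identical genes are uncertain.

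The 50 genes set aside (51 listed) were removed, and the 4 libraries were scaled by TMM and tested with edgeR 4.0.16 in R 4.3.3 (quasi-likelihood test, Benjamini-Hochberg adjusted p under 0.05), after filterByExpr with a minimum count of 10. CPM were scaled by TMM over all 7 libraries without the genes set aside. Each standard error was taken as the log2 fold change over the square root of F. The detection floor is 3 counts per library (0.0744 to 0.127 CPM). Replicates are separate mice by their labels. The KO_db/db libraries were not copies of each other, nor were the db/db libraries, and other pairs were not checked. On simulated data the 4-library fit recovered 172 of 200 genes changed by 2 on the log2 scale and called 3 of 13296 unchanged genes. The simulated counts had no spread particular to each gene and no acinar difference between the KO_db/db libraries. The changed genes were drawn from those above a minimum level. These rates therefore need not hold for the real libraries. Coordinates are those of GENCODE M21 on GRCm38, with 34273 symbols matched.

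Named genes are Aldh1a3, the 10 largest rises and 10 largest falls among called genes of at least 10 CPM in the higher group that did not overlap between groups (without predicted genes and pseudogenes), 8 genes the study names (Mafa, Slc30a8, Npr1, Ins1, Ins2, Gipr, Nr5a2 and Mki67), and of each function list the members called and up to 4 largest non-overlapping differences. Of these, the study names Gipr for db/db mice given an ALDH1A3 inhibitor, not for the sequenced libraries. Other genes were named after their values were seen, among them Slc2a2, Hic1, Tcf12, Nr2f6, Tff2, Muc1, Pklr, Pdx1, Nkx6-1, Pax6, Chgb, Scg5, Pam, Ero1b, Sst, Gcg, Lpin1, Papss2, Tle3, Insig1, Hmgcs1 and the further genes called. The 25 function lists and 7 marker lists, like the comparison itself, were chosen with earlier results of these data known, and no test was run on them. Alternatives were RLE scaling, DESeq2 1.42.0, no filter, all 7 libraries, the mouse number as block, the genes set aside kept, and each library left out. Promoter windows are from RefSeq (GRCm38.p6). Values of some list members are not reported here.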

Additional observations from a re-analysis of the deposited data

Results flagged for a closer look

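Outside the genes tested, the acinar enzyme and Reg genes set aside took 18.1% of the counts of KO_db/db mouse 1 and 2.05% of those of KO_db/db mouse 2, above the level in both db/db libraries (0.0518% and 0.0338%) and in all 3 db/+ libraries. Both are given here because they are a signal in data that the comparisons above left out. Prss2, trypsin, was at 5934 and 476 CPM in KO_db/db mice against 13.5 and 7.99 CPM in db/db mice, and Reg1 at 1913 and 164 CPM against 3.88 and 3.89 CPM. The study reports REG1 and REG2 staining, and Reg1 RNA by in situ hybridization, in islets of KO_db/db mice. The source of the RNA set aside was not tested here.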

How the results depend on the processing

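The 59 genes called (23 higher, 36 lower) became 1309 (688 and 621) with DESeq2, 1743 (877 and 866) with no filter on low counts and 866 (515 and 351) with all 7 libraries in 1 fit. They became 70 with RLE scaling, 43 with the acinar and Reg genes kept, and 57 (40 and 17) with all 7 libraries but KO_db/db replicate 1, an alternative chosen after seeing the data. Leaving out 1 library at a time gave 17 to 417 genes, 7 to 179 higher and 10 to 238 lower, with the fewest without KO_db/db replicate 1 and the most without db/db replicate 2; the lone library of a group is then assumed to vary like the other group, and the cause of these differences was not tested. With the mouse number as a replicate block 24 genes were called (8 higher, 16 lower), 14 of them among the 59. The deviations of same-numbered mice correlated at -0.0856 over 13471 genes. With 1 difference per group this cannot show whether same-numbered mice were handled together, which is not given in the sources used here. Of 24 named genes called, 8 passed without KO_db/db replicate 1, 21 without KO_db/db replicate 2, 16 without db/db replicate 1, 24 without db/db replicate 2 and 9 with the block. Log2 fold changes turned sign for Mki67 (0.147 with the block, and -0.91 to 1.29 with 1 library left out) and for Ins2 (-0.0401 to 0.38 with 1 library left out, negative without KO_db/db replicate 1, and -0.0436 with all 7 libraries but that one). The unadjusted p was under 0.05 for 2822 genes, and depth limits the genes at or under 3 counts in a library.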

Other observations

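Some values belong to no function described above. Cd79a, a B-cell receptor gene, was at 40.9 and 20.1 CPM in KO_db/db, 1.04 and 2.50 CPM in db/db and 21.8 to 37.0 CPM in db/+, while the B-cell genes Cd79b and Ms4a1 were at or below 0.322 CPM in the 4 libraries. Cd79a missed the threshold with 4 libraries and passed it with 7 (log2 fold change 4.10, adjusted p = 0.0655 and 0.00931).

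The ribosomal protein genes Rps2 and Rps18 were each low in KO_db/db mouse 1 only. Rps2 was at 1.94 and 182 CPM in KO_db/db and 414 and 212 CPM in db/db, and Rps18 at 2.99 and 114 CPM and 238 and 156 CPM, with 236 to 514 CPM and 110.5 to 220.1 CPM in the db/+ libraries. The pseudogene Gm10288 was listed at 0 in both KO_db/db libraries, at 25.9 and 26.1 CPM in db/db and at 6.30, 28.6 and 0 CPM in db/+. Hdac1-ps was at 6.27 and 5.44 CPM in KO_db/db, 0 in both db/db libraries and at most 0.188 CPM in db/+. These genes have near-identical copies, and how reads were divided among the copies was not tested.

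Etv1, a factor listed here among δ-cell markers, was lower in both KO_db/db libraries (34.2 and 39.0 CPM against 124 and 93.0 CPM, log2 fold change -1.55, adjusted p = 0.0505 and 0.0258), whereas the δ-cell genes Sst (log2 fold change 2.21, adjusted p = 0.0772 and 0.115), Hhex (0.884 and 1.10 CPM against 0.336 and 0.198 CPM) and Ghsr (0.715 and 1.96 CPM against 0.183 and 0.174 CPM) were higher in both.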
